A study of Drosophila melanogaster with 7 samples.

Results

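The glutathione and redox homeostasis genes examined here were 41 genes among the 7608 gene IDs of the expression table. They were chosen by the spelling of their names, as every gene whose FlyBase symbol begins with GstD, GstE, GstO, GstS, GstT, GstZ, Prx, Trx, Trxr, Sod, Gcl or Gss, or is Cat, Jafrac1 or PHGPx. Jafrac1 and PHGPx are older names of Prx2 and Gtpx in the annotation used. The genes fell into 7 GstD genes, 12 GstE genes, 6 genes of other glutathione S-transferase classes, 7 peroxiredoxins and peroxidases, 2 thioredoxin system genes, 4 superoxide dismutase and catalase genes and 2 glutathione synthesis genes. The remaining gene, Sodh2, meets the spelling but encodes a sorbitol dehydrogenase. A further 18 annotated genes with such symbols, among them GstD1, GstS1, Gss1, Prx5 and Trxr2, were not analysed here.

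RNA-seq was carried out on intestinal progenitor cells sorted from the adult midgut on day 10. The Sox21a-/- libraries (3) came from Esg-GFP; Sox21a-/- flies and the wild type libraries (4) from Esg-GFP flies, so that both genotypes carried the Esg-GFP fusion used for sorting. Sox21a encodes a Sox family transcription factor, and Esg-GFP marks intestinal stem cells (ISCs) and their enteroblast (EB) daughters. Many guts were pooled for each collection, which deletion allele of Sox21a was sequenced is not given in the sources used here, and the methods describe 3 biological replicates although the wild type group holds 4 libraries. Nothing states that every library came from a separate group of flies, so the p-values below measure the spread between these libraries, which may be technical in part.

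The values were FPKM, that is, fragments per kilobase of exon scaled to the mapped reads of the library, and they can be compared between genes because they are per length. Libraries held about 8260000 to 10200000 reads in Sox21a-/- and about 8470000 to 10300000 reads in wild type. A 0 in this table can be a failed estimate and not an absence of transcript, since 64.7% of all genes in it were at 0 in at least 1 library, and Sod1, an enzyme used by almost every cell, was listed at 0 in 1 wild type library. Zeros took 25.8% of the members' values against 25.7% of all values, and 13 members were at 0 in no library. Comparisons therefore rest on values above 0, and 31 members had at least 2 such values in each genotype and could be tested. Wild type replicates 3 and 4 were closer to each other than any other pair of libraries. The log2 ratios between them had a robust SD of 0.116 over moderately abundant transcripts, against 0.324 to 0.703 in the other pairs, so they may be less independent than their labels say. Sox21a itself was at 96.3, 50.6 and 0 FPKM in Sox21a-/- replicates 1 to 3, against 0, 0, 230 and 233 FPKM in wild type replicates 1 to 4, so its values did not check the genotype labels of the libraries. Library values below are always given in replicate order. As the samples were bulk RNA, fewer cells of a type and less RNA per cell cannot be told apart.

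Glutathione is the main small thiol of animal cells and is made in a first, limiting step by glutamate-cysteine ligase, whose catalytic and modifier subunits are Gclc and Gclm. Glutathione S-transferases (GSTs) join it to electrophilic compounds and to products of lipid peroxidation, and insects carry large Delta and Epsilon classes, GstD and GstE, in tandem gene arrays. Superoxide dismutases turn superoxide into hydrogen peroxide, which catalase and the peroxiredoxins remove, and the thioredoxin system keeps peroxiredoxins reduced. Drosophila lacks a classical glutathione reductase, and thioredoxin reductase does that work. In the fly midgut the redox state of ISCs, set in part by the Keap1-CncC pathway, is known to influence their proliferation.

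Among the members, GstD7 and GstE10 were higher in Sox21a-/- progenitors at an adjusted p of at most 0.05 (limma, Benjamini-Hochberg over all 5022 genes tested), and no member was lower. These 2 of 31 (6.45%) stand against 6.87% of all genes tested that were called higher, a share close to the background, and the 0 of 31 stands against 5.28% called lower. With limma P-values left unadjusted, 9 of 31 members were higher, against 14.6% of all genes, and 1 was lower, against 14.7%, at 0.05. The study's methods give thresholds, P of at most 0.05 with a fold of at least 2, but name no test. With limma P and the fold on log2(FPKM + 1) at these thresholds, GstE5 joined GstD7 and GstE10. That gave 3 of 31 higher, against 8.02% of all genes, and 0 lower, against 2.97%. The log2 difference, Sox21a-/- minus wild type on log2(FPKM + 1), was above 0 for 27 of the 31 members and for 46.5% of all genes tested. Its median over the members was 0.43, against -0.04 over all genes tested. The 10 members not tested do not enter these figures, and they include the 6 at 0 in every Sox21a-/- library. With zeros kept as values, 26 of 41 members were above 0, and the share of all genes was not computed for that setting. The median was then 0.38 over the members, against 0.04 over all genes tested. For most of the 31 members the difference did not reach a limma P of 0.05 before adjustment. Values above 0 did not overlap between genotypes for 9 members that were higher in Sox21a-/- (GstD4, GstD7, GstE1, GstE5, GstE7, GstE8, GstE10, Prx2 and Prx4), against 16.9% of all genes tested, and for GstE2, which was lower, against 21.2%.

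**Figure D1:**
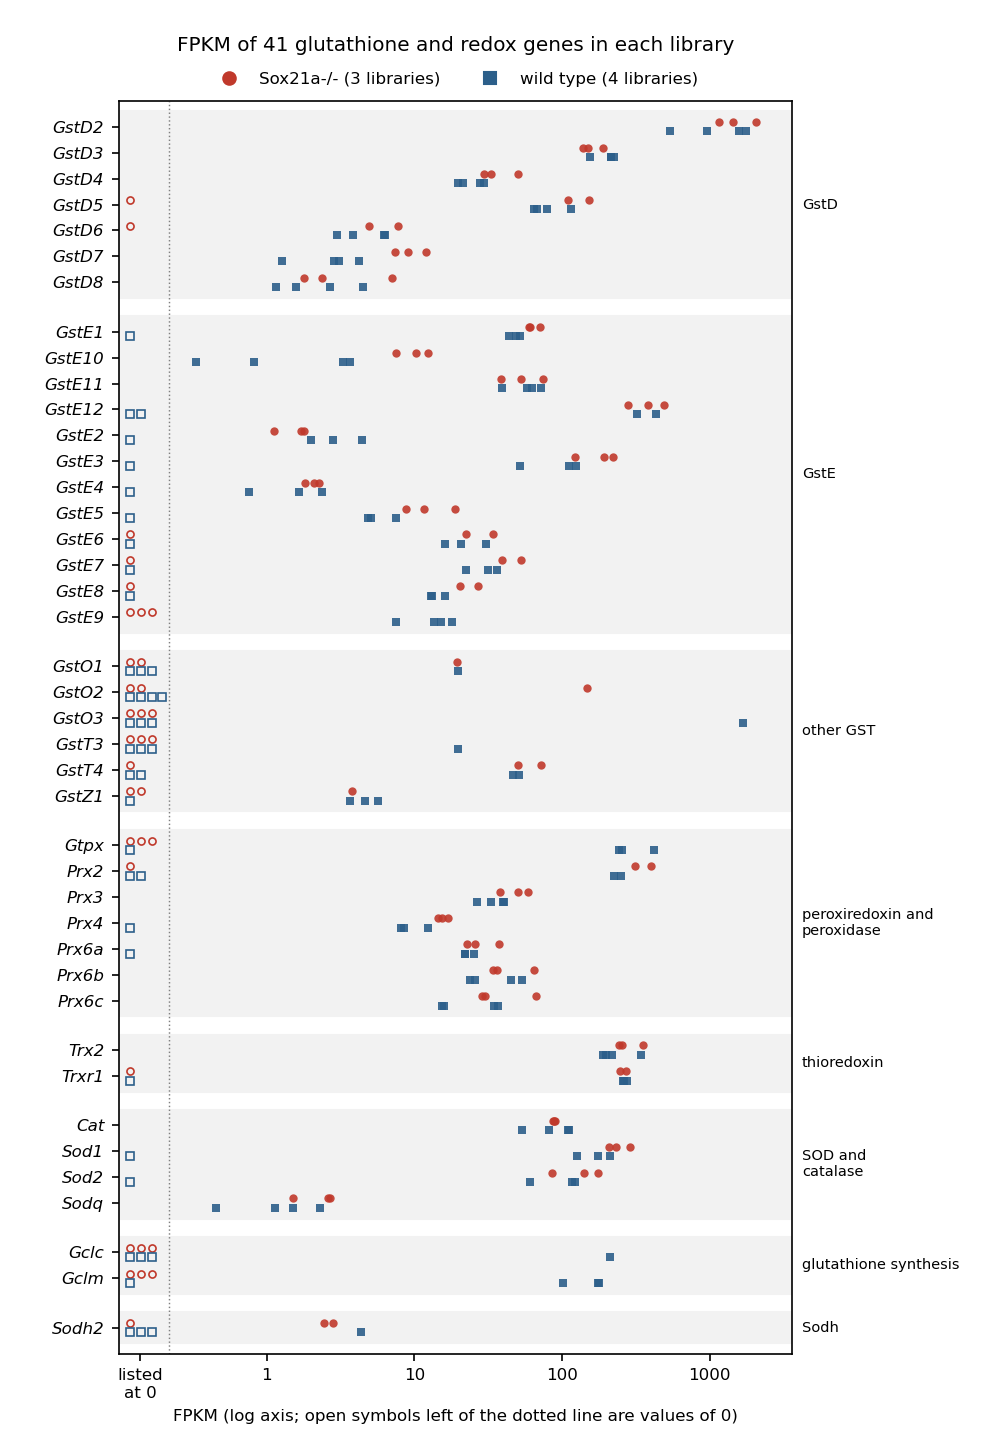
FPKM of each of the 41 genes in each library on a log axis, with Sox21a-/- libraries as red circles above the wild type libraries as blue squares and values listed at 0 as open symbols left of the dotted line. GstD7 and GstE10 have all 3 red circles to the right of all 4 blue squares, and GstE9, Gtpx and Gclm have no red circle above 0.

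The shift was uneven across libraries. Over the tested members, the median difference from the wild type mean was 0.66, 0.22 and 0.33 on the log2 scale in Sox21a-/- replicates 1 to 3, and -0.10, -0.18, 0.06 and 0.16 in wild type replicates 1 to 4. Sox21a-/- replicate 1 held the highest value of 16 of the 31 members, replicate 2 of 9 and replicate 3 of 1. Libraries also differed beyond the members. Among the most abundant transcripts, the median log2 ratio was 0.81 for Sox21a-/- replicate 1 over replicate 2. It was -0.77 for wild type replicate 2 over replicate 4. Among moderately abundant transcripts these ratios were 0.22 and -0.05. The part of such offsets in the members' shift was not tested. With Sox21a-/- replicate 1 left out no member passed the adjusted threshold, and without wild type replicate 4 GstD7 alone did. The plot of log2 differences sets the 31 members beside all genes tested.

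**Figure D2:**
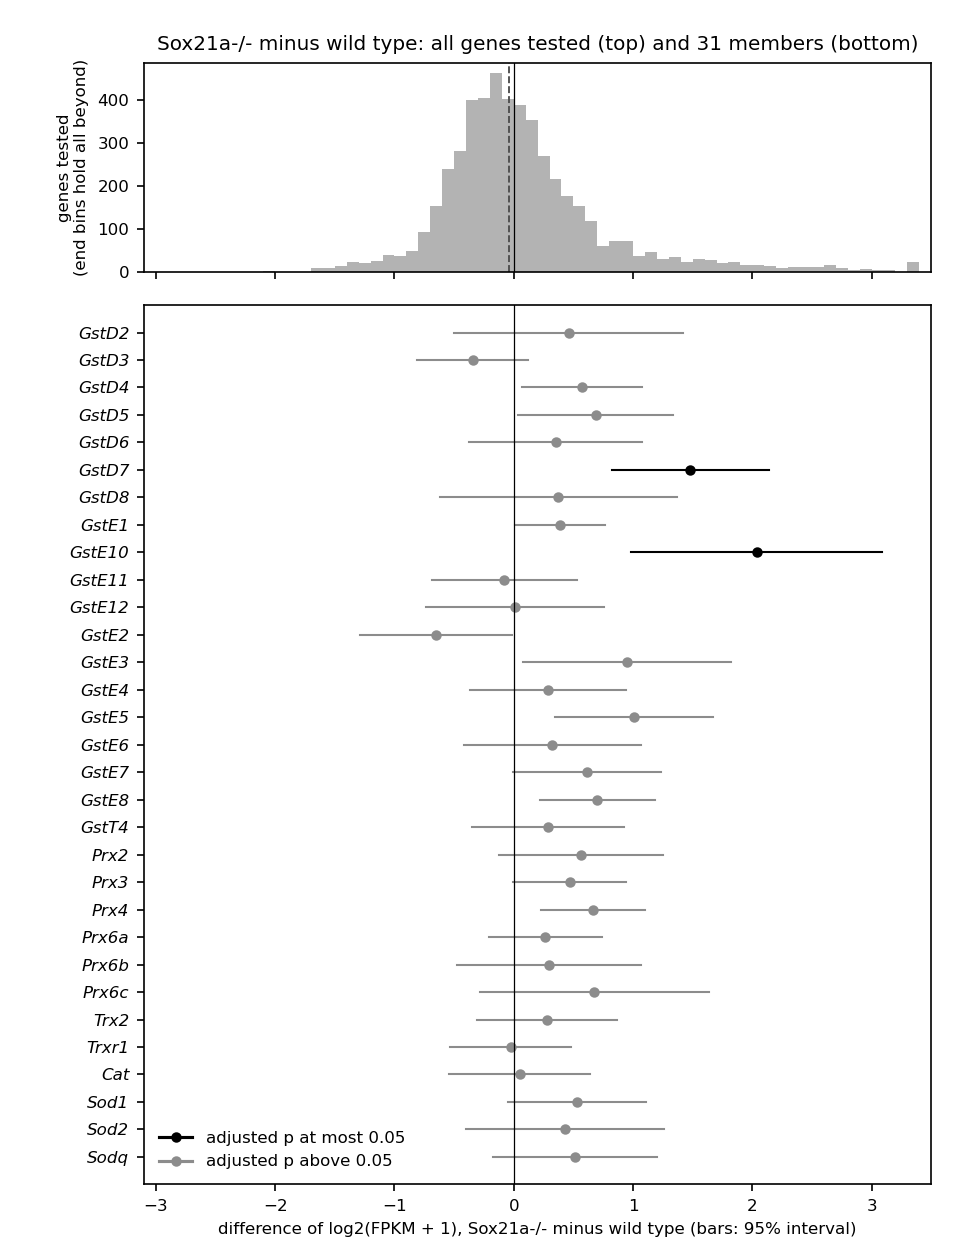
Top, the number of genes tested at each log2 difference, Sox21a-/- minus wild type on log2(FPKM + 1), with the dashed line at their median of -0.04. Bottom, the difference of each of the 31 tested members with its 95% interval, where the black points GstD7 and GstE10 pass an adjusted p of 0.05 and 27 of the 31 points lie right of 0.

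GstD genes are Delta class GSTs. The 7 in the table, GstD2 to GstD8, lie head to tail on one strand of chromosome arm 3R between 12371971 and 12380815 (BDGP6), each with 1 annotated transcript of 725 to 840 bases. They are related copies, and since the sources do not say how reads matching several of them were assigned, the split between them is uncertain. Their mean levels ran from 3.02 FPKM for GstD8 to 1354 FPKM for GstD2.

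GstD2 was the most abundant member with values in every library. It had 2059, 1150 and 1442 FPKM in Sox21a-/- and 539, 964, 1574 and 1750 FPKM in wild type, so wild type replicate 1 was the lowest library and wild type replicate 4 lay above 2 of the 3 Sox21a-/- libraries. Its log2 difference was 0.46 (95% interval -0.50 to 1.42, adjusted p = 0.505 in limma, exact permutation p = 0.457). Over all alternatives this difference lay between 0.065, after quantile normalization, and 0.69.

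GstD3, its neighbour, was at 188, 138 and 150 FPKM in Sox21a-/-, against 215, 154, 214 and 225 FPKM in wild type. The log2 difference was -0.35 (SE 0.20, limma adjusted p = 0.301, exact permutation p = 0.143), opposite in sign to that of GstD2. Within each library GstD2 exceeded GstD3 by a ratio of 11.0, 8.36 and 9.59 in Sox21a-/-, against 2.50, 6.25, 7.34 and 7.78 in wild type. This ratio was computed after the values had been seen and is given without a test. Over the 5 GstD genes with a value in every library, GstD2 made up 89.2%, 86.1% and 88.2% of the summed FPKM in Sox21a-/-, against 69.2%, 84.1%, 86.3% and 87.2% in wild type, so the genotypes overlapped in this share.

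GstD7 showed the clearest difference of the array at a low level. Its FPKM were 9.11, 12.1 and 7.38 in Sox21a-/-, against 1.28, 4.24, 2.87 and 3.09 in wild type, where wild type replicate 1 was the lowest and every Sox21a-/- library lay above every wild type one. These values correspond to about 56.9, 93.6 and 49.8 reads in Sox21a-/- and about 9.93, 32.6, 18.4 and 19.8 reads in wild type. GstD7 averaged 9.53 ± 2.38 FPKM in Sox21a-/- (SD, n = 3) and 2.87 ± 1.22 FPKM in wild type (SD, n = 4), a ratio of means of 3.32. This gave a log2 difference of 1.48 (SE 0.29, limma adjusted p = 0.0126), and the exact permutation p was 0.0286, the smallest that 35 splits of 7 libraries allow. Without Sox21a-/- replicate 1 the adjusted p was 0.0534, and over all alternatives it lay between 0.00683 and 0.164.

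GstD4 gave 50.0, 29.5 and 33.1 FPKM in Sox21a-/- and 21.5, 19.8, 29.5 and 27.7 FPKM in wild type. The groups did not overlap, but only just, since Sox21a-/- replicate 2 and wild type replicate 3 were nearly equal. The log2 difference was 0.57 (SE 0.22, limma adjusted p = 0.126, exact permutation p = 0.0571). GstD8 had 1.79, 7.02 and 2.39 FPKM in Sox21a-/- and 1.59, 4.49, 2.69 and 1.15 FPKM in wild type. Its log2 difference of 0.38 (SE 0.43, limma adjusted p = 0.610, exact permutation p = 0.514) rested on Sox21a-/- replicate 2 and was -0.09 without it.

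GstD5 and GstD6 were listed at 0 in Sox21a-/- replicate 1 alone, while their neighbours on both sides had values there. In the other libraries GstD5 was at 152 and 109 FPKM in Sox21a-/-, against 64.9, 115, 68.1 and 78.7 FPKM in wild type. GstD6 was at 4.95 and 7.73 FPKM in Sox21a-/- and at 6.33, 6.22, 2.98 and 3.83 FPKM in wild type. Neither passed the adjusted threshold, with log2 differences of 0.69 for GstD5 (limma adjusted p = 0.153) and 0.35 for GstD6 (limma adjusted p = 0.494). Of the 7 GstD genes, 1 passed the test, and the median log2 difference was 0.46.

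GstE genes are Epsilon class GSTs. GstE1 to GstE10 lie in an array on chromosome arm 2R between 18396638 and 18409835 (BDGP6), with GstE10 first on the minus strand and GstE1 to GstE9 following on the plus strand, while GstE11 and GstE12 lie elsewhere on that arm. Mean levels ran from 1.83 FPKM to 380 FPKM, the lowest being GstE4 and the highest GstE12. Of the 11 tested, 9 had a log2 difference above 0, the median was 0.39, and GstE10 was the only one past the adjusted threshold.

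GstE10 was higher in Sox21a-/- by the largest log2 difference of any tested member. It had 12.3, 7.55 and 10.3 FPKM in Sox21a-/-, against 3.69, 3.31, 0.331 and 0.827 FPKM in wild type. All Sox21a-/- libraries were above all wild type libraries, and the wild type values formed a higher pair, replicates 1 and 2, and a lower pair, replicates 3 and 4. In reads these were about 115, 87.7 and 104 in Sox21a-/- and about 43.1, 38.2, 3.18 and 7.95 in wild type, so the lower pair rested on very few reads. Means were 10.0 ± 2.38 FPKM in Sox21a-/- (SD, n = 3) and 2.04 ± 1.71 FPKM in wild type (SD, n = 4), a ratio of 4.92. This amounts to a log2 difference of 2.04 (SE 0.46, limma adjusted p = 0.0247, exact permutation p = 0.0286, the smallest possible). Leaving out wild type replicate 4 gave an adjusted p of 0.0672, leaving out Sox21a-/- replicate 1 gave 0.0880 and leaving out Sox21a-/- replicate 3 gave 0.0637, and over all alternatives it ranged from 0.00992 to 0.189. With wild type replicates 3 and 4 averaged into 1 sample, the adjusted p in limma was 0.0467 for GstE10 and 0.0293 for GstD7. GstE10 shares 20 exonic bases with GstE1 on the other strand, and the library kit does not mark strand, so a few of its reads could belong to GstE1.

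GstE5 was next in size. The 3 Sox21a-/- libraries had 11.6, 19.0 and 8.82 FPKM, against 5.09, 0, 7.48 and 4.84 FPKM in wild type. The values above 0 did not overlap, with the nearest being Sox21a-/- replicate 3 and wild type replicate 3. The log2 difference was 1.01 (SE 0.28, limma P = 0.00809, adjusted p = 0.0580), and the exact permutation p was 0.1, the smallest that 3 against 3 allows. GstE3, which had 192, 222 and 123 FPKM in Sox21a-/- and 51.7, 0, 111 and 125 FPKM in wild type, overlapped between genotypes by a narrow margin (log2 difference 0.95, limma adjusted p = 0.143).

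GstE1 was at 70.7, 59.6 and 60.6 FPKM in Sox21a-/- and at 49.1, 0, 43.9 and 51.9 FPKM in wild type, a small but clean separation of the values above 0 (log2 difference 0.39, limma adjusted p = 0.162). GstE2 ran the other way. Its FPKM were 1.72, 1.80 and 1.12 in Sox21a-/- and 4.41, 0, 2.004 and 2.84 in wild type (log2 difference -0.65, limma adjusted p = 0.163), and it was the member with a P of at most 0.05 on the lower side. GstE4, the least abundant of the array, had 2.27, 1.83 and 2.10 FPKM in Sox21a-/- and 0.759, 0, 2.39 and 1.65 FPKM in wild type, with overlap.

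GstE6, GstE7 and GstE8 were listed at 0 in Sox21a-/- replicate 2 as well as in wild type replicate 2. The remaining GstE8 values were 26.9 and 20.4 FPKM in Sox21a-/- and 13.0, 13.2 and 16.2 FPKM in wild type (log2 difference 0.70, SE 0.20, limma adjusted p = 0.0699, exact permutation p = 0.1). GstE7 was at 53.0 and 39.4 FPKM in Sox21a-/-, against 22.5, 31.3 and 36.5 FPKM in wild type, and GstE6 at 33.9 and 22.4 FPKM in Sox21a-/-, against 30.7, 16.2 and 20.8 FPKM in wild type. GstE7 and GstE8 did not overlap between genotypes and GstE6 did.

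The zeros of the array came in runs. In wild type replicate 2, all 9 consecutive genes from GstE1 to GstE8, the non-coding gene CR43687 included, were at 0 while GstE10 and GstE9 on either side had values. In Sox21a-/- replicate 2 the 4 genes GstE6 to GstE9 were at 0. Across all genes, neighbours along a chromosome under 1000 bases apart were compared, with overlapping genes included. When the first gene of a pair was at 0 in a library, the next was at 0 in 35.3% of cases. When the first was above 0, this share was 23.0%. For neighbours at least 10000 bases apart the shares were 25.6% and 24.5%.

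GstE9 stood apart because it was at 0 in all 3 Sox21a-/- libraries and at 7.54, 15.2, 13.7 and 18.1 FPKM in wild type, or about 61.1, 122, 91.4 and 121 reads. With zeros taken as real values, GstE9 was called lower (limma adjusted p = 0.00475), and it was the only member called in either direction under that setting. It lies 92 bases from GstE8, which was well above 0 in 2 of these 3 libraries, and its exons overlap those of imd on the other strand by 40 bases. imd itself was at 10.6, 13.4 and 8.33 FPKM in Sox21a-/-, against 11.9, 11.2, 8.49 and 7.36 FPKM in wild type. Whether the zeros of GstE9 are missing estimates or missing transcript was not tested.

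**Figure D3:**
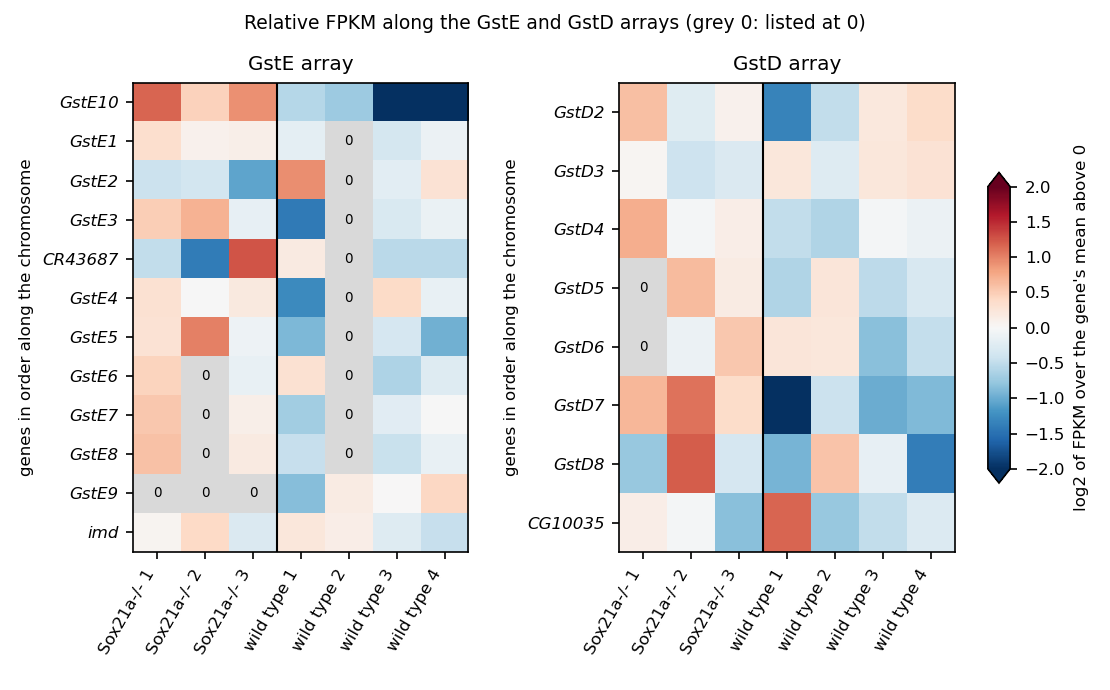
Each cell shows the log2 ratio of a library's FPKM to the gene's mean over values above 0, with genes in chromosome order from top to bottom, Sox21a-/- libraries left of the black line, wild type libraries right of it, and grey cells listed at 0. Wild type replicate 2 has a run of 9 zeros in the GstE array, Sox21a-/- replicate 2 a run of 4, and GstE9 is at 0 in all 3 Sox21a-/- libraries.

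Outside the array, GstE11 had 73.8, 38.7 and 52.9 FPKM in Sox21a-/- and 62.1, 39.3, 57.5 and 71.7 FPKM in wild type. The genotypes overlapped fully, with a log2 difference of -0.08 (95% interval -0.69 to 0.53, limma adjusted p = 0.872, exact permutation p = 0.743). GstE12, the most abundant GstE gene, was at 487, 280 and 382 FPKM in Sox21a-/- and at 321, 0, 0 and 429 FPKM in wild type, a log2 difference of 0.01 (95% interval -0.74 to 0.75, limma adjusted p = 0.992, exact permutation p = 1). GstE12 shares 33 exonic bases with CG3894.

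The 6 other GST genes belong to the Omega, Theta and Zeta classes, and most had too few values to compare. GstO1 had a value in Sox21a-/- replicate 1 (19.5 FPKM) and in wild type replicate 3 (19.8 FPKM) and was otherwise at 0. GstO2 was above 0 only in Sox21a-/- replicate 2, at 147 FPKM, GstO3 only in wild type replicate 4, at 1667 FPKM, and GstT3 only in wild type replicate 1, at 19.8 FPKM. The value of GstO3 was above every other value of any member but 2 of GstD2, from a gene at 0 in the other 6 libraries. GstO1, GstO2 and GstO3 lie close together on 3L, and GstO2 shares 61 exonic bases with se on the other strand. GstT4 was at 0, 71.5 and 50.4 FPKM in Sox21a-/- and at 0, 51.4, 0 and 46.5 FPKM in wild type (log2 difference 0.29, limma adjusted p = 0.505). GstZ1 was at 3.79, 0 and 0 FPKM in Sox21a-/- and at 5.68, 0, 3.68 and 4.63 FPKM in wild type.

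Peroxiredoxins reduce hydrogen peroxide with a reactive cysteine. All 6 that could be tested had a log2 difference above 0, between 0.26 and 0.67 with a median of 0.52, and none passed the adjusted threshold. Before adjustment 1 of the 6 was higher at a limma P under 0.05, against 14.6% of all genes tested. Prx4, a peroxiredoxin of the secretory pathway, came nearest. It had 15.5, 17.0 and 14.5 FPKM in Sox21a-/-, against 12.4, 8.13, 8.56 and 0 FPKM in wild type, so that the values above 0 did not overlap. Prx4 had a log2 difference of 0.66 (SE 0.19, limma P = 0.00834, adjusted p = 0.0591, exact permutation p = 0.1). It passed the adjusted threshold after median-ratio scaling, after quantile normalization and without wild type replicate 1. Prx4 shares 62 exonic bases with scramb2 on the other strand.

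Prx2, the main cytosolic peroxiredoxin, was at 401, 0 and 311 FPKM in Sox21a-/- and at 0, 0, 226 and 250 FPKM in wild type (log2 difference 0.57, limma adjusted p = 0.245). Prx3, the mitochondrial one, had 59.0, 37.8 and 50.4 FPKM in Sox21a-/- and 33.2, 26.7, 40.0 and 40.3 FPKM in wild type. Only Sox21a-/- replicate 2 fell within the wild type range, and the log2 difference was 0.47 (SE 0.21, limma adjusted p = 0.173, exact permutation p = 0.171). Prx6a had 37.2, 22.8 and 25.9 FPKM in Sox21a-/- and 25.4, 22.1, 0 and 22.1 FPKM in wild type (log2 difference 0.26, limma adjusted p = 0.433).

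Prx6b and Prx6c are close copies on 2R, and reads shared between them may have been split either way. Prx6b was at 36.5, 64.2 and 34.2 FPKM in Sox21a-/- and at 25.8, 23.8, 44.9 and 53.8 FPKM in wild type (log2 difference 0.30, SE 0.34, limma adjusted p = 0.603, exact permutation p = 0.486). Prx6c was at 29.9, 66.3 and 28.7 FPKM in Sox21a-/- and at 16.0, 15.4, 34.8 and 36.7 FPKM in wild type (log2 difference 0.67, SE 0.42, limma adjusted p = 0.324, exact permutation p = 0.286). In both genes Sox21a-/- replicate 2 was the highest library and wild type replicates 1 and 2 the lowest. The ratio of Prx6b to Prx6c was 1.22, 0.969 and 1.19 in Sox21a-/-, against 1.61, 1.55, 1.29 and 1.46 in wild type, again noticed in the values and given without a test.

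Gtpx, the fly homologue of phospholipid hydroperoxide glutathione peroxidase, was at 0 in all 3 Sox21a-/- libraries and at 255, 243, 0 and 421 FPKM in wild type. As it had no Sox21a-/- value above 0, it was not tested. With zeros taken as real values its limma adjusted p was 0.325.

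The thioredoxin system was represented by Trx2, a cytosolic thioredoxin, and Trxr1, a thioredoxin reductase. Trx2 had 352, 242 and 254 FPKM in Sox21a-/- and 345, 197, 189 and 218 FPKM in wild type. Replicate 1 was the highest library within each genotype, the groups overlapped, and the log2 difference was 0.28 (SE 0.26, limma adjusted p = 0.515, exact permutation p = 0.371). Over all alternatives this difference lay between 0.017, after quantile normalization, and 0.47. Trxr1 was among the steadiest members where it had values, at 249, 0 and 271 FPKM in Sox21a-/- and at 0, 275, 261 and 257 FPKM in wild type. Its log2 difference was -0.03 (95% interval -0.53 to 0.48, limma adjusted p = 0.951, exact permutation p = 0.8). Trxr1 shares 435 exonic bases with sni on the other strand.

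Cat, the catalase gene, had 89.4, 88.9 and 87.0 FPKM in Sox21a-/- and 53.4, 81.2, 109 and 112 FPKM in wild type. The means were nearly equal, at 88.4 ± 1.28 FPKM in Sox21a-/- (SD, n = 3) and 89.0 ± 27.5 FPKM in wild type (SD, n = 4), and the Sox21a-/- values lay inside the wild type range. The log2 difference was 0.05 (95% interval -0.54 to 0.64, limma adjusted p = 0.918, exact permutation p = 0.886), and its sign turned without wild type replicate 1 and after quantile normalization.

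Sod1, the cytosolic copper-zinc superoxide dismutase, was at 288, 232 and 209 FPKM in Sox21a-/- and at 175, 126, 0 and 210 FPKM in wild type. Only the lowest Sox21a-/- library reached the wild type range, and the log2 difference was 0.53 (SE 0.25, limma adjusted p = 0.207, exact permutation p = 0.2). Sod2, the mitochondrial manganese enzyme, was at 175, 85.9 and 140 FPKM in Sox21a-/- and at 0, 60.3, 116 and 122 FPKM in wild type, with overlap (log2 difference 0.43, limma adjusted p = 0.469). Sodq was barely expressed, at 2.67, 1.52 and 2.62 FPKM in Sox21a-/- and 1.51, 1.14, 0.457 and 2.28 FPKM in wild type (log2 difference 0.52, SE 0.30, limma adjusted p = 0.298, exact permutation p = 0.143).

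For glutathione synthesis, Gclm was at 0 in all 3 Sox21a-/- libraries and at 101, 0, 175 and 177 FPKM in wild type. Gclc was above 0 only in wild type replicate 3, at 212 FPKM, and was at 0 in the other 6 libraries. Neither could be tested on values above 0, and with zeros taken as real values the limma adjusted p was 0.325 for Gclm and 0.698 for Gclc. Together with GstE9 and Gtpx, Gclm made 3 of the 41 members at 0 in every Sox21a-/- library and above 0 in at least 3 wild type libraries, against 1.42% of all 7608 genes. The reverse, at 0 in every wild type library and above 0 in at least 2 Sox21a-/- libraries, was found for 0 of 41 members, against 1.76% of all genes. At 0 in every Sox21a-/- library and above 0 in any wild type library were 6 members (GstE9, GstO3, GstT3, Gtpx, Gclc and Gclm), against 6.90% of all genes. GstO2 alone was at 0 in every wild type library and above 0 in a Sox21a-/- library, against 4.86% of all genes. Sodh2, of the polyol pathway, was at 0, 2.84 and 2.43 FPKM in Sox21a-/- and at 4.34, 0, 0 and 0 FPKM in wild type, and its exons overlap an antisense RNA by 765 bases.

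**Figure D4:**
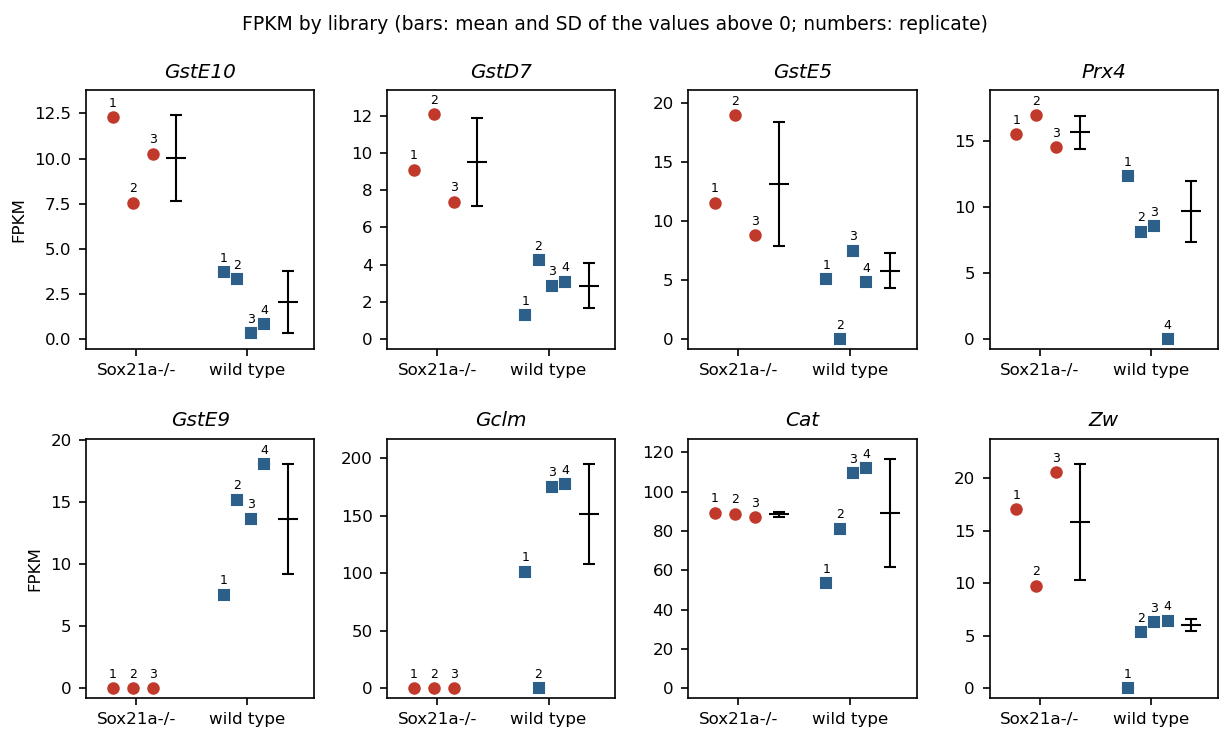
FPKM of 8 genes by library, with Sox21a-/- as red circles left of wild type as blue squares, replicate numbers above the points and bars for the mean and SD of the values above 0. GstE10, GstD7, GstE5, Prx4 and Zw are higher in every Sox21a-/- library than in any wild type library, GstE9 and Gclm are at 0 in all 3 Sox21a-/- libraries, and the Cat values of Sox21a-/- lie within those of wild type.

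Genes that act with the members were read from fixed lists. A list of 11 genes was drawn up for the Keap1-CncC pathway and NADPH supply. It also held Gnmt, an enzyme of neither function. Of the 11, 8 were in the table and 6 were tested. In Sox21a-/- 2 of them, Zw and Gnmt, rose while none fell, against 6.87% of all genes tested called higher and 5.28% called lower. Zw, glucose-6-phosphate dehydrogenase and a main source of NADPH for reducing glutathione and thioredoxin, had 17.1, 9.75 and 20.6 FPKM in Sox21a-/-, against 0, 5.31, 6.31 and 6.42 FPKM in wild type (log2 difference 1.21, SE 0.26, limma adjusted p = 0.0245). Gnmt, glycine N-methyltransferase, which consumes the methyl donor S-adenosylmethionine, had 42.0, 53.1 and 36.0 FPKM in Sox21a-/-, against 26.5, 14.7, 15.2 and 13.4 FPKM in wild type (log2 difference 1.31, SE 0.24, limma adjusted p = 0.0101). Neither gene overlapped between genotypes. In this list cnc and Keap1 were not analysed here, and maf-S, the partner of CncC, was at 0, 64.4 and 63.6 FPKM in Sox21a-/- and at 82.6, 50.5, 71.9 and 0 FPKM in wild type.

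Of a list of 36 symbols of other redox enzymes outside the spelling rule, some of them older spellings, 15 were in the table and 11 were tested. By limma 0 of these were called at the adjusted threshold, against 6.87% of all genes tested called higher and 5.28% lower. At 0.05 before adjustment 3 were higher and 0 lower, against 14.6% and 14.7%. Their median log2 difference was 0.30, against -0.04 over all genes tested. MtnC, a metallothionein, was nearest, at 294, 397 and 189 FPKM in Sox21a-/- and at 52.8, 138, 122 and 164 FPKM in wild type (limma adjusted p = 0.0668). Of the cytochrome P450, UDP-glycosyltransferase and transporter genes of detoxification, 19 of 24 were in the table and 14 were tested. In this list 3 genes rose and none fell, against 6.87% and 5.28% of all genes tested, and the median log2 difference was 0.50, against -0.04 over all genes tested. Cyp12d1-p and Cyp12d1-d, near-identical neighbouring copies that may share reads, were higher by 2.10 and 2.004 on the log2 scale (limma adjusted p = 0.0304 and 0.0129), and Cyp4ac1 by 1.08 (limma adjusted p = 0.0245).

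Transcripts of some other cell types also differed between the sorted populations. All 8 tested enterocyte markers had a log2 difference above 0, 3 of them past the adjusted threshold (Myo61F, lambdaTry and Vha100-4), against 46.5% of all genes tested above 0 and 6.87% called higher. The 5 enterocyte markers with a value in every library summed to between 299.6 and 545 FPKM in Sox21a-/- and between 28.2 and 174 FPKM in wild type. Over all 11 the sums ran from 1153 to 4962 FPKM in Sox21a-/- and from 491 to 2670 FPKM in wild type, but zeros in abundant trypsin genes enter these sums, and Myo31DF and Amy-p were at 0 in every Sox21a-/- library. Both tested Malpighian tubule markers, Uro and salt, were called higher, against 6.87% of all genes tested. That list of 4 summed to between 9.28 and 30.5 FPKM in Sox21a-/- and between 0.638 and 6.06 FPKM in wild type, with zeros in every one of its genes in some library. The 3 hemocyte markers with a value in every library, NimC1, Col4a1 and vkg, summed to between 6.88 and 66.8 FPKM in Sox21a-/-, with replicate 2 the highest, and between 2.21 and 3.399 FPKM in wild type. Over all 5 the sums ran from 145 to 197 FPKM in Sox21a-/- and from 2.63 to 133 FPKM in wild type, where crq made up most of the sum and was at 0 in wild type replicate 1. Of the 4 hemocyte markers tested, 0 were called by limma and 3 were higher at 0.05 before adjustment, against 14.6% of all genes tested. Among 4 enteroendocrine markers tested, 1 (CCHa2) was called higher and 0 lower, against 6.87% of all genes tested called higher. No call was made in either direction among markers of fat body and ovary (3 tested), visceral muscle (1 tested) or trachea (1 tested). Of the 5 progenitor markers tested, 1 was called higher and 2 lower, against 6.87% and 5.28% of all genes tested. Su(H) and N were not called (log2 difference -0.09 and -0.27, limma adjusted p = 0.795 and 0.574). Sox21a was called lower on its values above 0 (log2 difference -1.72, limma adjusted p = 0.035). For wild type that fit held only replicates 3 and 4, the pair that may be less independent. Values of klu were 9.14, 11.4 and 16.6 FPKM in Sox21a-/- and 43.0, 29.7, 49.0 and 41.0 FPKM in wild type (log2 difference -1.66, limma adjusted p = 0.00282). Delta, the Notch ligand of ISCs, rose to 3.57, 3.77 and 6.13 FPKM in Sox21a-/-, against 1.20, 0.727, 0.928 and 0.518 FPKM in wild type (log2 difference 1.56, SE 0.24, limma adjusted p = 0.00401), and esg was not analysed here. Several of these marker levels moved with genotype beside the GST, peroxiredoxin and superoxide dismutase values above, and their part in those values was not tested.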

How the data were processed

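Intestinal progenitor cells were sorted by Esg-GFP and RNA libraries were sequenced from 3 Sox21a-/- and 4 wild type samples. Single-end reads had been aligned by the authors with TopHat2 2.0.10 against genome Release 5, guided by the BDGP5 annotation, and the deposited values are FPKM per gene from Cufflinks 2.2.1. How reads matching several genes were shared, whether strand was used and how the table's genes were selected are not given in the sources used here. FlyBase IDs were looked up in the BDGP6 annotation for symbols and positions (7339 of 7608 matched), and 3 list symbols were replaced by their current names through RefSeq synonyms.

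Differences were fitted with limma 3.58.1 in R 4.3.3 (trend and robust settings, two-sided, no covariate) on log2(FPKM + 1), with values of 0 left out as missing, so a fit drops the libraries at 0. Genes needed 2 values above 0 in each genotype and a mean of at least 1 FPKM, and folds of weakly expressed genes are understated on this scale. P-values were adjusted by Benjamini-Hochberg over all 5022 genes tested. Exact permutation tests (two-sided) used every assignment of the libraries with a value above 0 to the genotypes. Figures and summaries used Python 3.11.15 (matplotlib 3.10.9, scipy 1.17.1, pandas 2.3.3, numpy 2.4.6). Reads per library were estimated from the FPKM times length of the lowest values, which rests on 5 to 39 genes a library, so reads per gene are approximate. Data simulated for this comparison held 200 changed genes, as many of log2 size 1 as of log2 size 2. Of the 4948 genes fitted, 189 were changed ones. Among 117 calls, 34 changes of log2 size 1 and 78 of log2 size 2 were recovered, and 5 calls were of unchanged genes. Smaller changes were not simulated. The simulation shuffled the spreads between genes and drew all libraries independently, unlike wild type replicates 3 and 4. Its share of wrong calls therefore need not hold for these data.

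Values in every library, with test results, were given for members called, members at 0 in no library and the most abundant member of each subgroup, and other members more briefly. The members and lists were chosen with earlier results of these data known. Alternatives covered the pseudocount, the filter, zeros as values, scaling, limma's settings, a replicate block, the average of wild type replicates 3 and 4, and each library left out. A planned motif search in promoters was not run, as promoter sequence was not used here.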

Additional observations from a re-analysis of the deposited data

Results flagged for a closer look

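GstD3 in wild type replicate 2, at 154 FPKM, lay far below the other wild type libraries, which were at 215, 214 and 225 FPKM, and close to the Sox21a-/- libraries. The gap took 0.848 of the whole range of the group. Of 16 members examined for a library apart from its group, GstD3 was the only one, and chance alone would give about 0.8, since about 1 group in 20 shows such a gap.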

How the results depend on the processing

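The values depend most on how zeros and libraries are handled. The number of members called higher was 2 in the reported fit, 1 with a pseudocount of 0.1 or 0.01, 4 after quantile normalization (GstE5 and Prx4 added), 0 with zeros kept as values and 0 to 3 when 1 library was left out. The number called lower was 0, and 1 (GstE9) with zeros kept as values. Over all genes, 345 were called higher and 265 lower. These counts were 91 and 69 with zeros kept, 227 higher among genes at 0 in no library, 169 lower with wild type replicates 3 and 4 averaged, and 165 to 407 higher and 140 to 250 lower with 1 library left out. The median log2 difference of the tested members was 0.43 and ranged from 0.34 to 0.58 with 1 library left out. With zeros kept as values it was 0.38, over 41 members of which 26 were above 0. After quantile normalization it was 0.32, with 25 of 31 members above 0. GstD7 kept its direction and stayed past the threshold in 16 of 18 alternatives and GstE10 in 11 of 18. Adding the replicate number as a block gave 1 member called higher (GstD7, with GstE10 at a limma adjusted p of 0.0568) and 147 genes called lower, and turned GstE11 to 0.036. Deviations of same-numbered libraries correlated at -0.003, 0.367 and 0.198, with replicates 2 and 3 of Sox21a-/- each correlating best with their own number and replicate 1 not, so a pairing was not established. The direction of small log2 differences turned for GstE12 and Cat after quantile normalization (-0.38 and -0.15), and with 1 library left out for GstE12 (-0.18 to 0.22), Cat (-0.17 to 0.18), GstE11 (-0.31 to 0.15), Trxr1 (-0.045 to 0.0039) and GstD8 (-0.086 to 0.68). Where fewer libraries or genes enter a fit, its construction alone can lower the counts, and for quantile normalization the cause was not tested. At about 8260000 to 10300000 reads a library, values under 1 FPKM rest on few reads. Since a 0 can be a failed estimate, and which zeros are such was not tested, a 0 was not read as a limit on the transcript.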
